A study of Mus musculus with 2 samples.

Results

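Levels of 8 genes that mark the pluripotent state were read in mouse embryonic stem cells: Pou5f1, which encodes Oct4, with Sall4, Zfp281, Utf1, Dppa2, Dppa4, Dppa5a and L1td1. The genes were chosen by name, and all 8 of 8 symbols matched 1 Ensembl ID each among the 47643 IDs of the count files, of which 47224 were named with GENCODE M21. The cells were of the E14 line, which comes from the blastocyst of a 129/Ola mouse, and were labelled as carrying a double knockout of Ago1 and Ago2, the Argonaute genes whose proteins carry out repression by microRNAs. The medium held 15% serum and LIF, the cytokine that sustains self-renewal, at 100 U/mL, and plates were coated with 0.2% gelatine. The group has 2 libraries of polyA RNA, called replicate 1 and replicate 2 after their labels and prepared by a protocol that keeps the strand. The labels name no clone or culture for either library, so every SD and p-value given here reflects differences between libraries that may be technical. Unedited cells were not analysed here, so the values are levels in these cells and not effects of the double knockout.

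Oct4 is a POU-domain transcription factor that binds DNA together with Sox2 at the enhancers of many genes active in these cells. Around it act zinc finger factors (Sall4, Zfp281), chromatin-bound proteins (Utf1, Dppa2, Dppa4) and RNA-binding proteins (Dppa5a, L1td1). Oct4 and Sall4 are expressed in naive and in later states of pluripotency, and most of the 8 genes are known to be silenced when the cells differentiate.

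Gene counts summed to 34798975 for replicate 1 and 29789560 for replicate 2. CPM scales a gene's count to the total of its library and serves to compare libraries. TPM divides also by the length of a gene's merged annotated exons and serves to compare genes. Reads were assigned to the targeted genes, at 70.8 and 141 CPM for Ago1 and 124 and 129 CPM for Ago2 in replicates 1 and 2. Ago1 thus differed between the libraries by a log2 ratio of 0.99 (edgeR's exact test, adjusted p = 1.37e-08). Counts per whole gene do not show an edited exon, so these levels check no label. The stem cell markers Sox2, Nanog, Zfp42 and Esrrb stood at 251 TPM or more in both libraries. Markers of other cell types were low. The summed CPM of 7 markers each was 7.93 and 5.91 for primitive endoderm (1 of 7 at 1 CPM or more in both libraries), 7.50 and 5.74 for trophoblast (1 of 7), 10.7 and 12.2 for mesoderm and endoderm (2 of 7), 35.9 and 33.9 for neuroectoderm (3 of 7) and 30.7 and 29.4 for fibroblasts (3 of 7). The highest were Nes (32.1 and 29.7 CPM) and Thy1 (24.7 and 23.1 CPM), while Prl3d1, Cer1, Dcx, Col3a1 and Lum had no count in either library. The summed CPM of the 8 pluripotency markers was 6040 in replicate 1 and 5752 in replicate 2.

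All 8 genes were well above the expression threshold of 1 CPM in both libraries, which 58.0% of protein-coding genes and 29.8% of all named genes reached. Their median log2(TPM + 1) was 8.42 in replicate 1 and 8.52 in replicate 2, against 2.07 and 1.98 for the 21620 protein-coding genes. Together they took 0.604% of the counts of replicate 1 (exact Clopper-Pearson 95% interval 0.601 to 0.607%) and 0.575% of those of replicate 2 (0.573 to 0.578%), from 210175 and 171356 counts. The intervals given here cover counting error only. Dppa5a alone supplied 51.1 and 47.7% of these counts and Pou5f1 23.5 and 23.1%.

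Pou5f1 (ENSMUSG00000024406; GRCm38 chromosome 17, 35506018 to 35510772, plus strand) had 49465 and 39594 counts. It stood at 1421 CPM in replicate 1 (exact Poisson 95% interval 1409 to 1434) and 1329 CPM in replicate 2 (1316 to 1342), a mean of 1375 ± 65.3 (SD, n = 2). In TPM it stood at 1748 and 1627, which placed it at rank 48 and 50 among protein-coding genes. The 3 protein-coding genes nearest to it in log2(TPM + 1) over both libraries were the cytoplasmic actin gene Actg1 (1730 and 1649 TPM) and the ribosomal protein genes Rps16 (1703 and 1640 TPM) and Rpl26 (1704 and 1598 TPM). With merged exons as the length, Oct4 transcripts thus stood level with those of a major actin, a gene named for being nearest in level. The annotation lists 6 transcripts whose merged exons span 2248 bases, while the longest, Pou5f1-201, has 1362 bases and codes for 352 residues. With the longest transcript of each gene as its length, Pou5f1 took 2265 and 2116 TPM, whereas the other 7 genes all took lower values than with merged exons.

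Sall4 (ENSMUSG00000027547; chromosome 2, 168748332 to 168767943, minus strand) encodes a zinc finger factor that works with Oct4 and binds the NuRD repressor complex. It had 8073 and 6642 counts, or 232 and 223 CPM, and 116 and 111 TPM over exons of 5536 bases. Zfp281 (ENSMUSG00000041483; chromosome 1, 136624901 to 136630053, plus strand), a zinc finger factor known for restraining Nanog, had 3634 and 3427 counts, or 104 and 115 CPM. At 58.5 and 64.1 TPM it was the lowest of the 8 genes in both libraries. Within a library, where scaling cancels, Sall4 exceeded Zfp281 in TPM by 1.98-fold in replicate 1 and 1.73-fold in replicate 2.

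Utf1 (ENSMUSG00000047751; chromosome 7, 139943789 to 139945112, plus strand) encodes a chromatin-associated protein and is a classical target of Oct4 and Sox2. It had 7269 and 6770 counts, or 209 and 227 CPM, close in CPM to Sall4. Its single annotated transcript has 1227 bases, so in TPM it stood at 471 and 510, far above Sall4. Pou5f1 exceeded Utf1 in TPM by 3.71-fold in replicate 1 and 3.19-fold in replicate 2.

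Dppa2 (ENSMUSG00000072419; chromosome 16, 48303908 to 48319723, plus strand) and Dppa4 (ENSMUSG00000058550; chromosome 16, 48283733 to 48294237, plus strand) are neighbours on the same strand, 9670 bases apart. Their SAP-domain proteins bind each other and chromatin and are known to hold developmental promoters open to later activation. Dppa2 had 4713 and 3958 counts, or 135 and 133 CPM, and 153 and 149 TPM. Dppa4 had 5197 and 4746 counts, or 149 and 159 CPM, and 248 and 264 TPM. Dppa4 was higher than Dppa2 in both libraries, by 1.62-fold and 1.77-fold in TPM (mean 1.69 ± 0.10, SD, n = 2). Over the 201 aligned bases where their coding sequences resemble each other, 67.2% of positions are identical, and they shared no stretch of 50 bases.

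Dppa5a (ENSMUSG00000060461; chromosome 9, 78367052 to 78368177, minus strand) encodes a small RNA-binding protein of the KH-domain kind, 118 residues long. It had 107395 and 81724 counts, or 3086 and 2743 CPM. Its only annotated transcript has 619 bases, so in TPM it reached 13780 and 12192, rank 3 among protein-coding genes in both libraries. L1td1 (ENSMUSG00000087166; chromosome 4, 98726734 to 98738480, plus strand) encodes an RNA-binding protein derived from the first open reading frame of a LINE-1 retrotransposon. It had 24429 and 24495 counts, or 702 and 822 CPM, and 611 and 713 TPM. Replicate 2 thus held as many L1td1 reads as replicate 1 from a smaller library.

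In TPM the order from high to low was Dppa5a, Pou5f1, L1td1, Utf1, Dppa4, Dppa2, Sall4 and Zfp281 in both libraries. The highest exceeded the lowest by 236-fold in replicate 1 and 190-fold in replicate 2. At no step in this order did the values of the 2 libraries overlap between neighbours. The narrowest steps were Dppa2 over Sall4, by 1.33-fold in mean TPM, and L1td1 over Utf1, by 1.35-fold. With the longest transcript as the length the order was the same, with steps of 1.22-fold and 1.46-fold there, while Dppa5a exceeded Pou5f1 by 4.66-fold in place of 7.70-fold. In CPM, which is not divided by length, Sall4 lay above Utf1, Dppa4 and Dppa2 in mean level. Against Utf1 this held in replicate 1 (232 and 209 CPM) and not in replicate 2 (223 and 227 CPM).

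**Figure D1:**
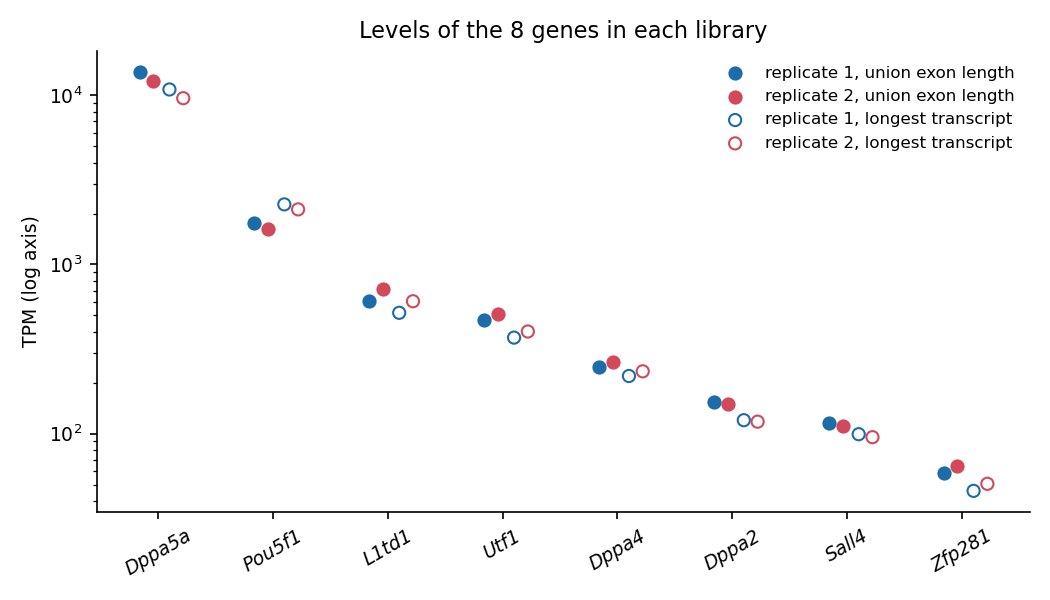
Level of each gene in TPM on a log axis, by library (blue, replicate 1; red, replicate 2), with merged exon length (filled) or the longest annotated transcript (open) as the gene's length. The genes keep their order under both lengths, and Pou5f1 alone moves up with the longest transcript.

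How far these counts belong to the named gene was read from the sequence that its transcripts share with other annotated genes. The sequences come from GENCODE M21, on the GRCm38 reference, which is of another strain than the cells. Of the distinct 50-base stretches in a gene's transcripts, 38.6% recurred in other genes for Dppa5a, 31.3% for Dppa4 and 29.1% for Dppa2. The share was 10.1% for Pou5f1, 7.64% for Sall4 and 1.44% for L1td1, and none of the stretches of Utf1 and Zfp281 recurred. For Pou5f1 and Sall4 nearly all of this was overlap on the opposite strand. The antisense gene Gm19553 inside Pou5f1 shared 221 of its 233 recurring stretches and had 21 and 11 counts, and Gm14261, across the start of Sall4, shared all 433 and had 4 and 11 counts. The libraries keep the strand, but whether the counting used it is not stated in the labels.

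For Dppa2, Dppa4 and Dppa5a the partners were mostly processed pseudogenes, copies of the spliced messenger RNA inserted elsewhere in the genome. Dppa2 had 7 partners, all of them processed pseudogenes. The closest, Gm9788 (chromosome 19, 41459813 to 41460718, plus strand), matched 897 of the 903 coding bases, with a longest identical run of 381 bases. Gm8023 (chromosome 1, 178266204 to 178267106, plus strand) matched 879 of 902 aligned positions. The first 60 coding bases are shown because a read that falls wholly inside such a stretch hardly separates gene from copy, with bases that differ from the gene in capitals.
Dppa2: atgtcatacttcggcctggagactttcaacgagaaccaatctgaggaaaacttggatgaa
Gm9788: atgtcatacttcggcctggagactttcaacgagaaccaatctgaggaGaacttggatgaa
Gm8023: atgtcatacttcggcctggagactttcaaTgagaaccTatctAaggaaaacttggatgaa

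Gm9788 differs from Dppa2 at 1 of these 60 bases and Gm8023 at 3. Gm9298, which is not among the genes counted, has all 60 bases in common with Dppa2. Gm9788 received 82 and 43 counts and Gm8023 6 and 8. All 5 partners of Dppa2 analysed here had 90 and 51 counts together, 1.91 and 1.29% of the counts of Dppa2. How reads that fit both a gene and its copy were divided is not stated in the labels.

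Dppa4 had 2 partners. Gm14058 (chromosome 2, 122214620 to 122215354, minus strand) matched 724 of the 732 coding bases of the shorter isoform Dppa4-201, and the other, Gm5501, was less alike. Their starts are set side by side with the same use of capitals.
Dppa4: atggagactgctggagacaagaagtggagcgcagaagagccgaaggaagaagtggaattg
Gm14058: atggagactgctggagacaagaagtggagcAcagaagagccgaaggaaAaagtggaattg

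The partners of Dppa4 had 72 and 64 counts together, 1.39 and 1.35% of its own. Gm14058 took 67 and 58 of them. The counts assigned to Dppa4 were thus far above those assigned to either partner in both libraries.

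Dppa5a had 9 partners, of which 7 are pseudogenes. The copies are spread over several chromosomes, and the unprocessed copies Dppa5b and Dppa5c lie near the gene on chromosome 9. Dppa5b and Dppa5c are not among the genes counted, so no count could be assigned to them. Gm6798 (chromosome X, 8654465 to 8654824, plus strand) and Gm6083 (chromosome 5, 29538153 to 29538509, plus strand) show how little the starts differ.
Dppa5a: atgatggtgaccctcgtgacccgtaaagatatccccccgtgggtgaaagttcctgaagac
Gm6798: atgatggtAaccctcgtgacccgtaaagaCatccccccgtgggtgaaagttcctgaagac
Gm6083: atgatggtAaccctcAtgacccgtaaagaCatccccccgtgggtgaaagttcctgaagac

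Over the whole coding sequence of 354 bases Gm6083 differs at 11 positions. Gm6798 had 88 and 75 counts and Gm6083 67 and 51. Pigp, a protein-coding gene of the glycolipid anchor pathway whose annotated span contains the copy Gm15310, had 189 and 145. The 7 partners analysed here had 412 and 328 counts, 0.384 and 0.401% of those of Dppa5a. Differences between gene and copies are spaced closely, so that only 3.08% of 100-base stretches of Dppa5a recurred in other genes, against 53.2% of 35-base stretches.

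Pou5f1 has 1 processed pseudogene among its partners, Gm5712 (chromosome 3, 129433673 to 129434715, plus strand), which shared 13 stretches of 50 bases. Over the full coding sequence 87.2% of aligned positions are identical, gaps counted as differences. Coding bases 38 to 97, the first 60 aligned without a gap, show one of the more alike parts.
Pou5f1: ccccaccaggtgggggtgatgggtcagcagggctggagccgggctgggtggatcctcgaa
Gm5712: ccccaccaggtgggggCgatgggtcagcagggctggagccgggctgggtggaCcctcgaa

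Gm5712 had no count in either library, which allows a level of up to 3 counts, 0.0862 CPM for replicate 1 and 0.101 CPM for replicate 2. L1td1 shares 47 stretches with the pseudogene Gm48515, which is not among the genes counted.

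**Figure D2:**
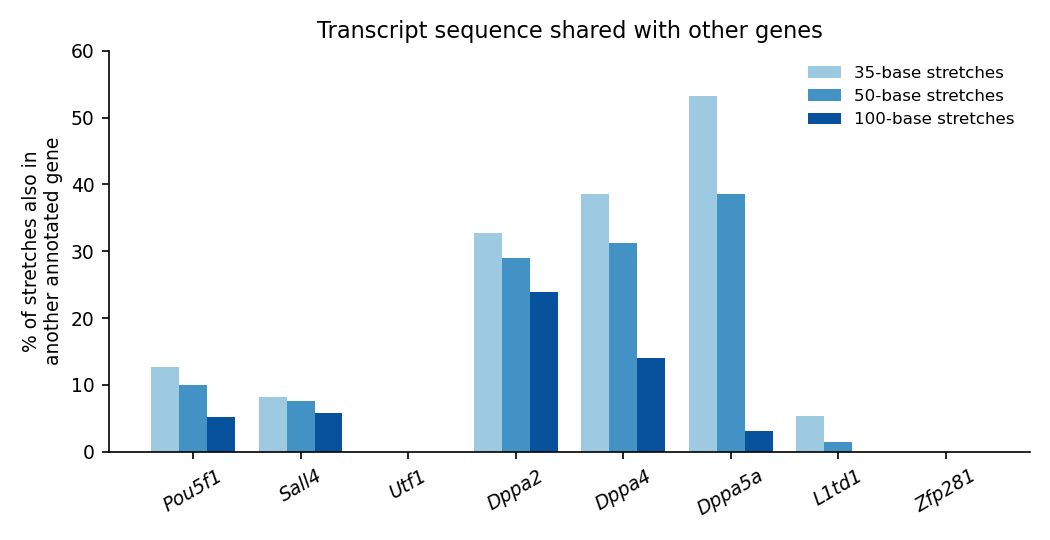
Share of the distinct stretches of each gene's transcripts, in percent, that also occur on either strand in the transcripts of another annotated gene, for stretches of 35, 50 and 100 bases. Dppa2, Dppa4 and Dppa5a stand at 29.1, 31.3 and 38.6% for 50 bases, and Utf1 and Zfp281 at 0.

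If reads that fit several places were dropped, the length that can collect reads is shorter. Dividing by the length without shared stretches of 50 bases gave a mean of 21149 TPM for Dppa5a in place of 12986, 373 for Dppa4 in place of 256 and 213 for Dppa2 in place of 151. Only the 8 genes were shortened, while the sum that scales TPM kept the full length of every gene. The values are thus not strict TPM, and the shifts restate each gene's shared percentage. At 100 bases 3.08% of the stretches of Dppa5a were shared, so its shift depends on the stretch length. Dppa5a moved by 1.63-fold, and the order of the 8 genes was the same.

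The only comparison the design allows is of the libraries with each other. By reads, 4 of the 8 genes were higher in replicate 2 and 2 lower in an exact binomial test, two-sided, with Benjamini-Hochberg adjustment over all 19078 genes tested. That test sets a difference against counting error alone and called 24.2% of all genes, 11.2% as higher and 13.1% as lower. Among the 6124 genes with at least 2000 counts, a depth all 8 genes have, it called 44.1%, with 23.6% higher and 20.5% lower. The 8 genes lie above that depth, with at least 3427 counts per library each. The test calls smaller differences at greater depth, so that share is not matched in depth to the 8 genes. EdgeR's exact test, whose dispersion comes from the same 2 libraries and so contains the differences it is set against, called none of the 8 genes, none at an unadjusted p under 0.05 either (lowest p 0.0821, all adjusted p 1), and 0.456% of all genes (4.51% unadjusted). The differences of 6 genes were thus larger than counting error, and none passed the test that allows for spread beyond it.

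L1td1 showed the largest difference. Its log2 ratio of replicate 2 over replicate 1 was 0.23 ± 0.01 (SE from counting; exact binomial test, adjusted p = 1.29e-64), a level 17.0% higher in replicate 2. Of the 6124 deep genes, 569 (9.29%) differed by more in either direction. Dppa5a was lower in replicate 2, with a log2 ratio of -0.17 ± 0.01 (exact binomial test, adjusted p = 3.34e-143), and 17.9% of deep genes differed by more. The RNA-binding pair thus differed in opposite directions: Dppa5a exceeded L1td1 in TPM by 22.5-fold in replicate 1 and 17.1-fold in replicate 2.

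Pou5f1 was lower in replicate 2 by a log2 ratio of -0.10 ± 0.01 (exact binomial test, adjusted p = 1.99e-22). Removing a trend of the log2 ratios with GC content and length over all genes left -0.02 for Pou5f1, whose longest transcript has 57.6% GC. That value has no test. The same correction took Sall4 from -0.06 to 0.01 and Dppa2 from -0.03 to -0.09, and left the sign of the other 5 genes as it was.

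Utf1, Dppa4 and Zfp281 were higher in replicate 2, with log2 ratios of 0.12 ± 0.02, 0.09 ± 0.03 and 0.14 ± 0.03 and adjusted p of 1.36e-05, 0.00986 and 0.00057 in the exact binomial test. Sall4, with a log2 ratio of -0.06 ± 0.02, did not pass (adjusted p = 0.0533), and did pass when only genes with at least 100 counts were tested. Dppa2 differed by -0.03 ± 0.03 (adjusted p = 0.568; 95% counting interval -0.09 to 0.03). The median log2 ratio of the 8 genes was 0.03, against -0.01 for all genes tested.

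**Figure D3:**
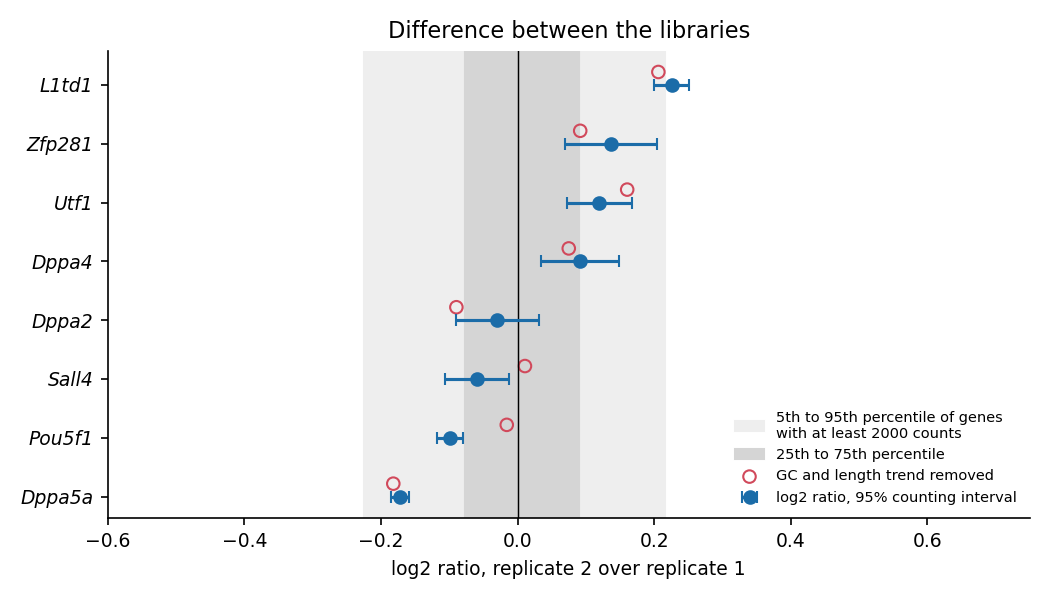
Log2 ratio of replicate 2 over replicate 1 for each gene with its 95% counting interval (filled), and after removal of the GC and length trend (open). Grey bands run from the 25th to the 75th and from the 5th to the 95th percentile of genes with at least 2000 counts. L1td1 at 0.23 lies just past the upper edge of the wider band at 0.22, and Pou5f1 moves from -0.10 to -0.02.

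The levels of the 8 genes were set beside genes that act with them. All 16 listed partner proteins of Oct4 reached 1 CPM in both libraries, with a median log2(TPM + 1) of 7.64. Trim28, a co-repressor gene, was the highest at 969 and 926 TPM and Nanog followed at 653 and 670 TPM, while the DNA-binding factor gene Arid3b was the lowest at 24.7 and 27.1 TPM. Sox2, the DNA-binding partner of Oct4, stood at 529 and 574 TPM. Pou5f1 exceeded Sox2 by 3.30-fold in replicate 1 and 2.83-fold in replicate 2. Of these 16 genes 9 were higher and 2 lower in replicate 2 by the exact binomial test, and edgeR's exact test called none. All 16 have at least 2000 counts, where 23.6% of genes were higher and 20.5% lower. They ran from Arid3b (2480 and 2342 counts) to Trim28 (50719 and 41679 counts), so those shares are not matched to them in depth. Their median log2 ratio was 0.04. Sox2 and Nanog are also listed as targets.

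All 14 listed targets of Oct4 and Sox2 were expressed as well, with a median log2(TPM + 1) of 8.33. The Nodal co-receptor gene Tdgf1 (774 and 767 TPM) and the secreted phosphoprotein gene Spp1 (686 and 745 TPM) led, and the signalling adaptor gene Tcl1 was the lowest (85.9 and 74.8 TPM). Of the 14, 5 were higher, 5 lower and 4 not called in the exact binomial test, beside 44.1% called among all genes with at least 2000 counts. That share is not matched in depth to the 14 targets either. EdgeR's exact test called none. Their median log2 ratio was 0.01.

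Relatives of the 8 genes were far less uniform. Of the other 14 POU genes, 7 reached 1 CPM in both libraries. The highest was Pou2f1, the widely expressed Oct1 gene, at 24.9 and 26.2 TPM, which Pou5f1 exceeded by 70.2-fold and 62.0-fold. Pou1f1, a pituitary factor gene, was the lowest with 0 and 1 counts. Pou5f1 took 86.9 and 86.0% of all POU counts, and 96.4% of POU TPM in each library. Of the 10 POU genes deep enough to test, 1 was higher and 1 lower in replicate 2 by the exact binomial test, beside 24.2% called among all genes, and edgeR's exact test called none. Sall1, a paralogue of Sall4, stood at 138 and 144 TPM, so that Sall4 had 0.839 and 0.769 of its TPM, while Sall2 and Sall3 stayed below 3 TPM in both libraries. Zfp148, the relative of Zfp281, stood at 24.4 and 26.5 TPM, below Zfp281 in both libraries.

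Among genes named like Dppa5a or sharing its KH domain, Ooep was the highest at 217 and 229 TPM and Khdc3 followed at 62.5 and 69.7 TPM. Both are known as maternal-effect genes of the egg. Dppa5a exceeded Ooep by 63.6-fold and 53.3-fold. Dppa3, a germ cell and naive marker, stood at 32.4 and 39.4 TPM. Dppa1 and Khdc1a had 0 and 1 counts each, and Khdc1b and Khdc1c had none in either library.

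Dppa2 and Dppa4 are known to be needed for the cleavage-stage genes of the Zscan4 group, which appear in a small share of these cells. Of 14 such genes tested, 12 were lower in replicate 2 by the exact binomial test (background 13.1%) and none was higher, with a median log2 ratio of -0.94. EdgeR's exact test called 6 as lower (background 0.341%). The list was chosen with earlier results of these data known, and its near-identical copies are not separate observations. Its counts beside the background are therefore a description and not a test. Zscan4f stood at 208 TPM in replicate 1 and 102 TPM in replicate 2, and its close copies Zscan4c and Zscan4e at 103 and 53.4 TPM and at 78.1 and 36.4 TPM, counts that near-identical genes may share. The lowest was Tdpoz1, with 10 and 8 counts. Dppa2 and Dppa4 in the same libraries had log2 ratios of -0.03 and 0.09. In bulk RNA, fewer cells in such a state and less RNA per cell cannot be told apart.

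**Figure D4:**
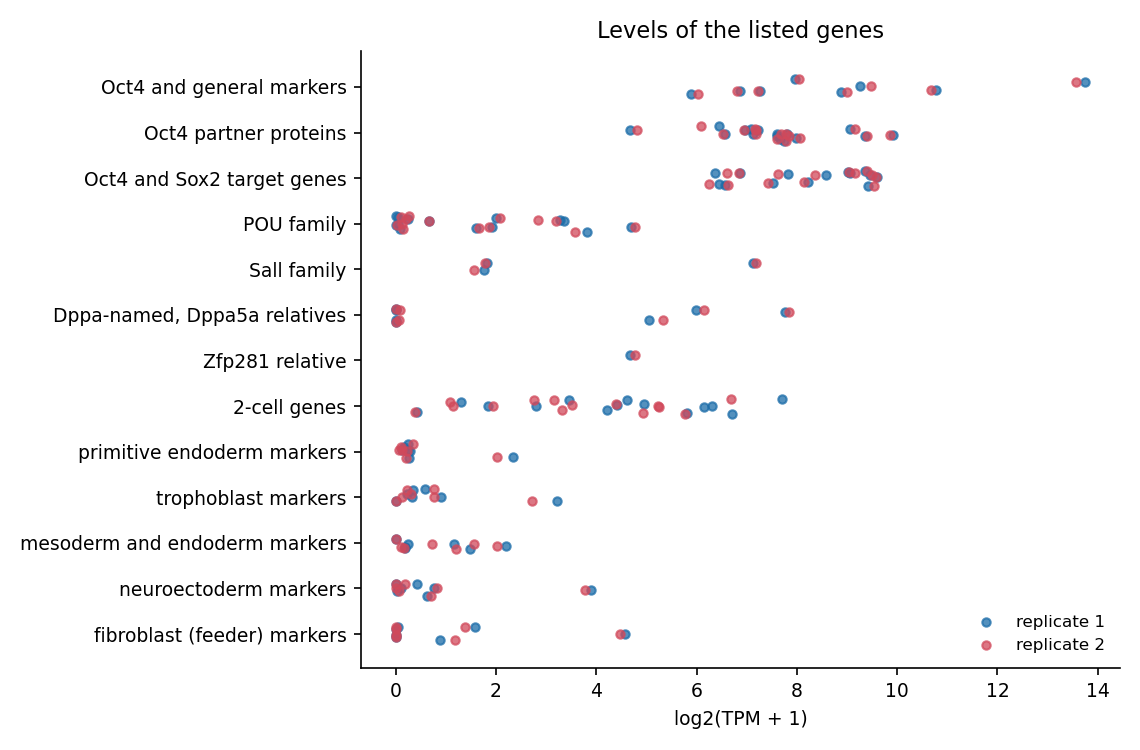
Levels in log2(TPM + 1) of every listed gene found, 1 point per gene and library (blue, replicate 1; red, replicate 2). The 8 markers, the partners and the targets lie to the right, and the 2-cell genes are mostly lower in replicate 2. Lineage and fibroblast markers lie mostly near 0, and the highest of them are Thy1 (22.8 and 21.2 TPM) and Nes (13.8 and 12.7 TPM).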

How the data were processed

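RNA of 2 libraries of 1 genotype was analysed. The deposited values are raw counts of reads for each Ensembl gene, as judged from the values. The submitters' processing notes name STAR 2.4.2a and the builds mm10 and GRCm38. How reads were counted (tool, strand, reads fitting several genes, annotation) is not given in the sources used here.

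IDs were named with GENCODE M21; 419 unnamed IDs (0.116 and 0.124% of counts) stayed in CPM totals and not in TPM. Intervals are 95% exact Poisson (CPM) or Clopper-Pearson (shares). Replicates were compared with a two-sided exact binomial test at TMM-scaled library sizes (factors 0.999 and 1.00) over genes whose libraries summed to at least 10 counts, Benjamini-Hochberg adjustment, threshold 0.05, and with edgeR 4.0.16 (exact test, trended dispersion). Ratios used 0.5 added counts, and the GC and length trend a lowess fraction of 0.3. Both tests were also run on simulated counts with known fold changes, whose outcome is not reported here. Alignments used Biopython 1.88.

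The 8 genes and all lists were chosen with earlier results of these data known. The rule for names covered the 8 genes, each list's 2 highest genes and its lowest (any gene of lists of up to 7), the 3 genes nearest to Pou5f1 in level, neighbours, overlapping genes and up to 3 sequence partners per gene, and not all that it covers are named. Further genes were named where a count turned on them (Sox2, Zscan4e and the stem cell markers). Zscan4a was not matched.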

Additional observations from a re-analysis of the deposited data

How the results depend on the processing

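No paired analysis was possible because both libraries belong to 1 group. With DESeq2 size factors, library totals alone or a minimum of 1 count, 6 of the 8 genes were called as before, and 7 with a minimum of 100 counts. All genes called numbered 4269 to 4641 under these settings against 4624 (24.2% of 19078 tested). The minimum count also sets how many genes are tested, so these counts are not shares of the same number. EdgeR's exact test called 0 of the 8 genes and 87 of all genes. The 6 genes called at first had the same sign of the log2 ratio under every setting tried. Sall4, the gene added by the minimum of 100 counts, went from -0.06 to 0.01 with the GC and length trend removed. The median log2(TPM + 1) of 8.47 ran from 8.42 to 8.52 with either replicate left out and fell to 7.89 over the 4 genes with under 10% shared sequence, a smaller set. The share of counts, 0.590%, ran from 0.575 to 0.604% with either replicate left out, an alternative chosen after seeing the data, as was the group of genes with at least 2000 counts. Over all 8 genes 9.77% of 50-base stretches were shared, 12.2% of 35-base and 5.75% of 100-base stretches. Mean TPM moved by more than the SD for all 8 genes with the longest transcript or with only protein-coding genes in the sum. Depth was no limit for the 8 genes, each with at least 3427 counts per library.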

Other observations

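The nearest protein-coding genes on either side of the 8 markers, as far as analysed here, stood below the marker in TPM in both libraries, except that Dppa2 and Dppa4 are each other's neighbours. Tcf19, a growth-related gene that lies 1961 bases beyond the end of Pou5f1, stood at 13.1 and 10.1 TPM with 293 and 194 counts. On its other side H2-Q10, a histocompatibility gene, had 1.21 and 0.722 TPM. Ooep, 7931 bases from Dppa5a on the same strand, stood at 217 and 229 TPM, whereas Gsta2 on the other side had 14 and 6 counts. Kndc1, 2251 bases from Utf1, stood at 10.1 and 9.61 TPM, and Patj, 7130 bases from L1td1, at 3.54 and 4.10 TPM. Nr5a2, which encodes a nuclear receptor known to bind the Pou5f1 promoter, is the protein-coding gene next to Zfp281 on the right and stood at 25.7 and 26.8 TPM.

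Of the 13 such neighbours analysed here, leaving out Dppa2 and Dppa4, 6 differed between the libraries by the exact binomial test, 3 higher and 3 lower in replicate 2. Over all genes it called 24.2%, and among genes with at least 2000 counts 44.1%. The neighbours ran from Gsta2 (14 and 6 counts) to Ooep (5829 and 5295 counts), so neither share is matched to them in depth. Lower were Tcf19 (log2 ratio -0.37 ± 0.13, adjusted p = 0.0264), Atp9a next to Sall4 (-0.17 ± 0.04, adjusted p = 0.000512) and Kif14 next to Zfp281 (-0.23 ± 0.04, adjusted p = 4.4e-06). Higher were Patj (0.22 ± 0.08, adjusted p = 0.0446), Ooep (0.08 ± 0.03, adjusted p = 0.0129) and Nectin3 next to Dppa4 (0.26 ± 0.05, adjusted p = 2.42e-06). Not all of them are close: Nectin3 lies 1785207 bases from Dppa4 and Kif14 93389 bases from Zfp281. Tcf19 and Patj differed in the same direction as Pou5f1 and L1td1 and Nectin3 in that of Dppa4, while Kif14 and Ooep differed in the opposite direction to Zfp281 and Dppa5a. Atp9a was lower, as was Sall4, whose own difference did not pass in that test. Whether neighbours follow their markers was not tested. EdgeR's exact test gave an adjusted p of 1 for each of these 6 neighbours.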
